A study of Sus scrofa with 6 samples.

Results

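The conserved miRNAs examined here were 206 of the 1143 miRNAs in the table. The paper called reads conserved where they matched miRNAs or precursors of other mammals in miRBase and the precursor was found in the pig genome. A mature sequence can still be known in pig: PN-16-5p matched known miR-138-5p at all 23 compared bases. The 206 were taken from the 238 rows of the type "conserved", leaving out by name every arm of 16 hairpins (32 rows). The 206 came from 137 hairpins, and 204 carried the name of a matched precursor. They were measured by small RNA sequencing of longissimus dorsi, the long back muscle, in 3 Meishan (MS, an obese breed) and 3 Large White (LW, a lean breed) pigs. The paper describes the animals as female fetuses at 35 days post-conception from different sows, whereas the sample labels give adults of 2 years. No pig was treated or genetically altered, and breed was the only difference that the labels give between the groups. Each library was 1 animal. The question was which of these miRNAs differ in level between the breeds.

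A miRNA is cut from a hairpin precursor, first by Drosha in the nucleus and then by Dicer in the cytoplasm, which leaves a 5p and a 3p arm. One arm is loaded into an Argonaute protein and pairs with target mRNAs mainly through its seed, bases 2 to 8, so that arms sharing a seed share many targets. In skeletal muscle the best known miRNAs are miR-1, miR-133a and miR-206, which act in the proliferation and differentiation of myoblasts. Fragments of abundant structural RNAs such as ribosomal RNA (rRNA) have the same size, and several entries of miRBase are of that kind.

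The tissue carried its defining miRNAs in every library. The known pig miR-1-3p, miR-133a-3p and miR-206-3p together took 3.29, 2.81 and 3.25% of all normalized reads in MS1, MS2 and MS3, against 0.585, 0.702 and 0.576% in LW1, LW2 and LW3. The shares did not overlap (two-sided exact permutation test, p = 0.10, the smallest that 3 against 3 allows). They moved with breed in the same direction as most members called below, and their part in those results was not tested. In bulk tissue, fewer cells of a type and less RNA per cell cannot be told apart. The reads behind the listed values numbered 1038986 to 3282583 in MS and 2028446 to 3419270 in LW libraries, and 1 read was worth 0.720 to 1.69 normalized reads in MS and 0.813 to 1.25 in LW.

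The sequences that carry the results are given 5′ to 3′ with the seed in capitals. The first set is the 5S rRNA type. The 4 arms of PN-150 and PN-151, both matched to mir-7641, are shown because they tile a single stretch: laid over each other by shared ends of 13 to 15 bases they joined into 1 run of 53 bases, given last with no seed marked.
PN-150-5p: cGTCTGATctcggaagctaagc
PN-151-5p: cTCGGAAGctaagcagggtcgggc
PN-151-3p: tAAGCAGGgtcgggcctggttagt
PN-150-3p: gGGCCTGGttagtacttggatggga
PN-150 and PN-151 joined: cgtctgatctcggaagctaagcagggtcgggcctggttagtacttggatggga

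The second set is of the 28S rRNA type. PN-117 and PN-118 are shown because both arms of each came from the same bases, sharing 19 and 10 of them. The arms of a hairpin normally face each other across a loop. PN-83-3p is shown for its abundance, and the arms of PN-83 did not overlap.
PN-83-3p: aAACGAGAactttgaaggccga
PN-117-5p: cGGTGCGGagagcccttcgtc
PN-117-3p: gTGCGGAGagcccttcgtcctggga
PN-118-5p: cCTCGGTTggcctcggatagc
PN-118-3p: cTCGGATAgccggtcccccgcc

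The third set holds members that share a seed with a known pig miRNA, each placed above that miRNA. PN-3-5p (mir-26b) differed from miR-26a-5p at 2 of 22 bases, PN-15-5p (mir-135b) from miR-135-5p at 1 of 23, and PN-1-3p (mir-1-2) from miR-1-3p at 1 of 22. PN-48-5p (mir-384) shared with miR-30a-5p little beyond the seed, with 11 mismatches in 23. PN-24-3p (mir-200b) and PN-25-3p (mir-200c) have the seed of miR-429-3p, while PN-17-3p (mir-141) differs from them within the seed.
PN-3-5p: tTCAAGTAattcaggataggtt
miR-26a-5p: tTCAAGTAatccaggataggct
PN-15-5p: tATGGCTTttcattcctatgtga
miR-135-5p: tATGGCTTtttattcctatgtga
PN-1-3p: tGTAATGTaaagaagtgtgtat
miR-1-3p: tGTAATGTaaagaagtatgtat
PN-48-5p: tGTAAACAattcctaggtaatgt
miR-30a-5p: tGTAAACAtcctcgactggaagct
PN-17-3p: tAACACTGtctggtaaagatg
PN-24-3p: tAATACTGcctggtaatgatga
PN-25-3p: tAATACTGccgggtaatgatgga
miR-429-3p: tAATACTGtctggtaatgccgt

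The last set holds PN-74-5p, an abundant member that rose, some members with the largest breed differences, and members whose 2 arms moved apart.
PN-61-3p: tTGAAAGGctatttcttggtct
PN-6-5p: gTGCATTGtagttgcattgc
PN-32-3p: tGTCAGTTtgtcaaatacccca
PN-74-5p: tACCCATTgcatatcggagttg
PN-63-3p: tGATTGGCacctcttggagtga
PN-51-5p: tGGTCGACcagttggaaagtaat
PN-51-3p: gTACTTCAcctggtccactagc
PN-68-5p: tCTTGTTAaaaggcagattct
PN-68-3p: aTTCTGCAtttttagcaagttt
PN-73-5p: aGAGGTTAtccgtgttatgttc
PN-73-3p: aTAATACAtggttaacctcttt

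Most members were rare. A breed mean of 10 or more normalized reads was reached by 65, of at least 100 by 31 and of at least 1000 by 13, whereas 126 had a mean of at least 1. In both breeds 138 members were seen, in MS alone 33 and in LW alone 35. The highest mean among these 68 one-breed members was 4.82 normalized reads and their median was 0.418, less than the worth of 1 read in any library, so that presence in a single breed was not resolved for most of them at this depth. Lengths ran from 18 to 26 nt, with 78 members of 22 nt. The seed of a known pig miRNA was shared by 25 members.

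Values of single libraries are given in the order MS1, MS2, MS3 and LW1, LW2, LW3. The members took 4.15, 6.29 and 3.58% of all normalized reads in MS, against 2.47, 1.84 and 1.51% in LW. Every MS library lay above every LW library, with means of 4.67 ± 1.43% and 1.94 ± 0.487% (SD, n = 3 each; two-sided exact permutation test, p = 0.10, the smallest possible). This share was made of 2 unlike parts: 12 arms of 6 hairpins of the rRNA type, and the other 194 members. The 12 arms held 28.4, 57.2 and 42.3% of the members' reads in MS, and 70.5, 58.6 and 59.2% in LW.

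The sums of the 194 other members lay further apart between the breeds. These members summed to 70251, 53587 and 36304 normalized reads in MS, against 18504, 21163 and 17929 in LW. The sums did not overlap, and the difference of their log2 means was 1.43 (two-sided exact permutation test, p = 0.10). PN-3-5p, PN-74-5p, PN-73-3p, PN-51-5p and PN-147-5p, each with a mean above 1000 in at least 1 breed, were the abundant ones among them. The sum averaged 53381 in MS and 19199 in LW, and most of its difference lay in PN-3-5p, PN-74-5p and PN-73-3p. They averaged 26518.5, 13068 and 2795 in MS, against 7180, 2512 and 462 in LW. With the GC correction their log2 fold changes were -0.36, 2.02 and -0.31. PN-51-5p and PN-147-5p overlapped between breeds and had lower means in MS.

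**Figure D1:**
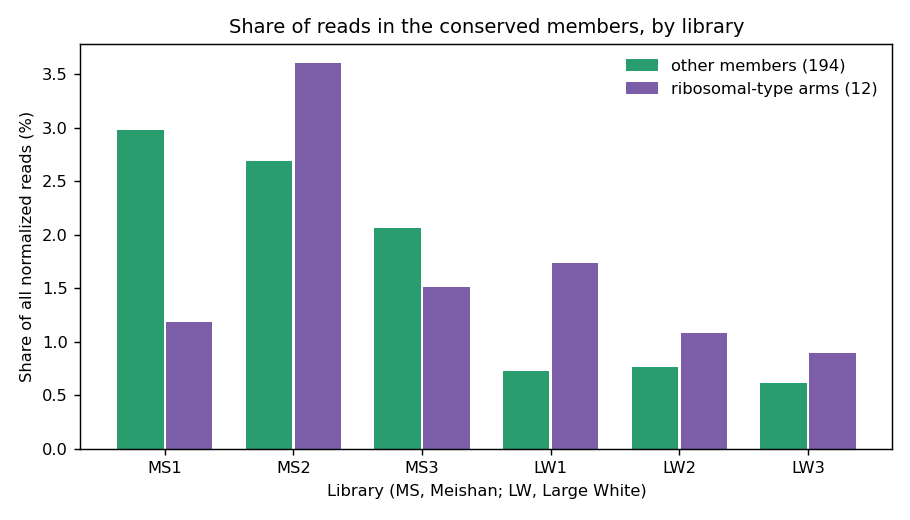
Share of all normalized reads (%) in the 194 other members (green) and in the 12 ribosomal-type arms (purple) in each library, 1 bar per library, MS libraries on the left. The other members lie between 2.07 and 2.97% in MS and between 0.615 and 0.761% in LW, whereas the ribosomal-type arms overlap between breeds and peak at 3.60% in MS2.

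The ribosomal-type arms overlapped between the breeds and were highest in single libraries. They summed to 27861, 71742 and 26612 normalized reads in MS, against 44150, 29949 and 25972 in LW, a difference of log2 means of 0.21 (two-sided exact permutation test, p = 0.80). Of the 12 arms, 9 had their highest value in MS2 and 3 in LW1. MS2 was the highest library of 8 of the 53 other tested members and of 61 of all 548 miRNAs tested. Without MS2 the difference was -0.26, on the other side of 0. The 28S type (8 arms) differed by 0.36 and the 5S type (4 arms) by -0.53 on this scale (two-sided exact permutation tests, p = 0.60 and p = 0.40). As a share of reads the 5S type averaged 0.277% in MS and 0.280% in LW.

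PN-83-3p (mir-716a) was the most abundant of the 12, with 16016, 40463 and 13036 normalized reads in MS, against 19665, 15152 and 11654 in LW. MS2 stood apart and the other 5 libraries overlapped (log2 fold change 0.43 ± 0.38 (SE), adjusted p = 0.334). PN-118-5p (mir-2904) had 4051, 10584 and 3350 normalized reads in MS, against 7920, 4051 and 4487 in LW, again highest in MS2 and next in LW1. Among the 12, limma called PN-151-3p lower in MS and PN-141-5p higher, 16.7% of them, against 62.2% of all miRNAs tested.

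PN-151-3p (mir-7641) had 649, 1465 and 1361 normalized reads in MS, against 2680, 2086 and 1865 in LW, all MS below all LW (log2 fold change -1.003 ± 0.34 (SE), adjusted p = 0.0213). Its call was lost without MS1 (adjusted p = 0.108) or without LW1 (adjusted p = 0.0819), and with the GC correction its log2 fold change was -0.41 (adjusted p = 0.349). PN-141-5p (mir-6087), at 90% G and C, was the rarest of the 12, with 38.9, 66.1 and 30.5 normalized reads in MS, against 7.52, 8.13 and 0.913 in LW (log2 fold change 3.05 ± 0.61 (SE), adjusted p = 0.00105). The opposite arm, PN-141-3p, overlapped between breeds, with 608, 1738 and 695 normalized reads in MS, against 1126, 899 and 757 in LW. PN-118-3p, PN-117-5p, PN-150-5p and PN-151-5p had means above 1000 in at least 1 breed too, overlapped between breeds and were not called. PN-118-3p passed the test without MS1 (log2 fold change 1.05, adjusted p = 0.0257), with equal sums (1.15, adjusted p = 0.0416) and with the GC correction (1.12, adjusted p = 0.0223).

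**Figure D2:**
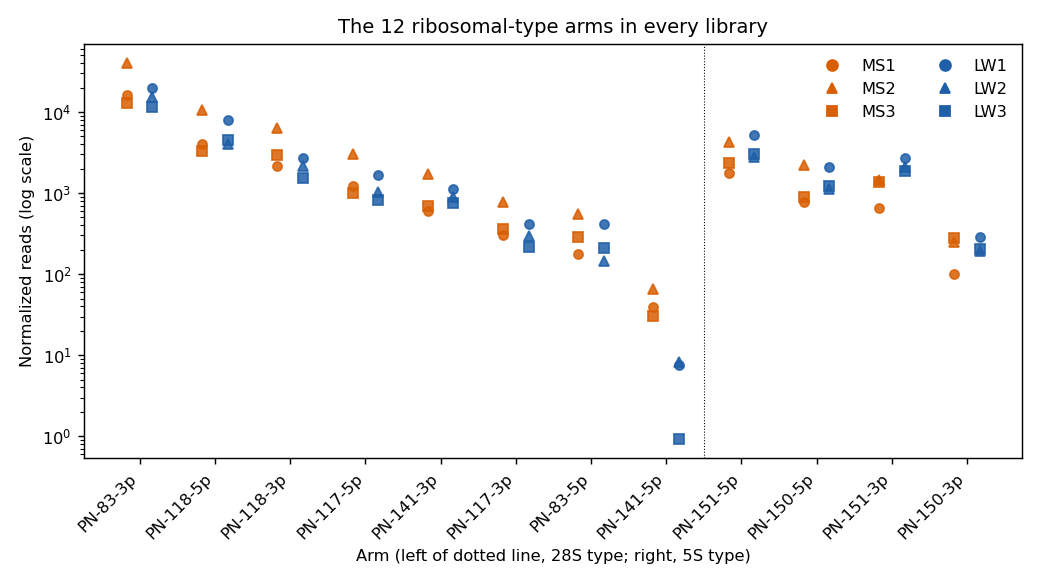
Normalized reads (log scale) of the 12 ribosomal-type arms in each library, MS in orange left of LW in blue, marker shape giving the library number. MS2 (orange triangle) is the highest library in 9 arms and LW1 (blue circle) in 3, and PN-141-5p shows MS above LW.

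The geometry of these hairpins differed from that of the other members. In 76 hairpins both arms could be placed on the hairpin sequence with at most 3 mismatches. The arms overlapped in 4 of the 6 of the ribosomal type, by 19 bases in PN-117, 15 in PN-151, 10 in PN-118 and 6 in PN-141, and in 5 of the other 70. Where arms did not overlap, a median of 16 bases lay between them. PN-83, with 74 bases between its arms, had the widest gap. The hairpins of PN-117 (chr6:866649-866705), PN-118 (chr6:866740-866808), PN-141 (chr6:867408-867456) and PN-83 (chr6:868791-868939) followed each other on the minus strand of the Sscrofa10.2 build, PN-117 and PN-118 only 34 bases apart. PN-150 was placed at chr6:77384736-77384791 and PN-151 at chr2:81464825-81464874, both on the minus strand. Their rRNA type was assigned from the matched precursors and this geometry, so that the overlap of arms is no separate support for it. No rRNA sequence was searched here.

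Of the 65 members tested, limma called 32 at an adjusted p under 0.05, 25 higher and 7 lower in MS. Over all 548 miRNAs tested, 62.2% were called, 34.1% higher and 28.1% lower. The members' shares were 49.2% called, 38.5% higher and 10.8% lower, so that their share of rises was near the background and that of falls under it. Every MS library lay above every LW library in 28 members and below in 9, where the background was 36.7% and 31.0%. The median log2 fold change was 0.55 over the 65 members, 0.82 over the 53 outside the ribosomal type and 0.11 over all 548. Scaling every library to the same sum moved all miRNAs up by a median of 0.43 in MS and gave 33 members higher and 4 lower. The calls of PN-40-5p, PN-84-3p and PN-151-3p were lost under it (adjusted p = 0.109, 0.0749 and 0.247).

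**Figure D3:**
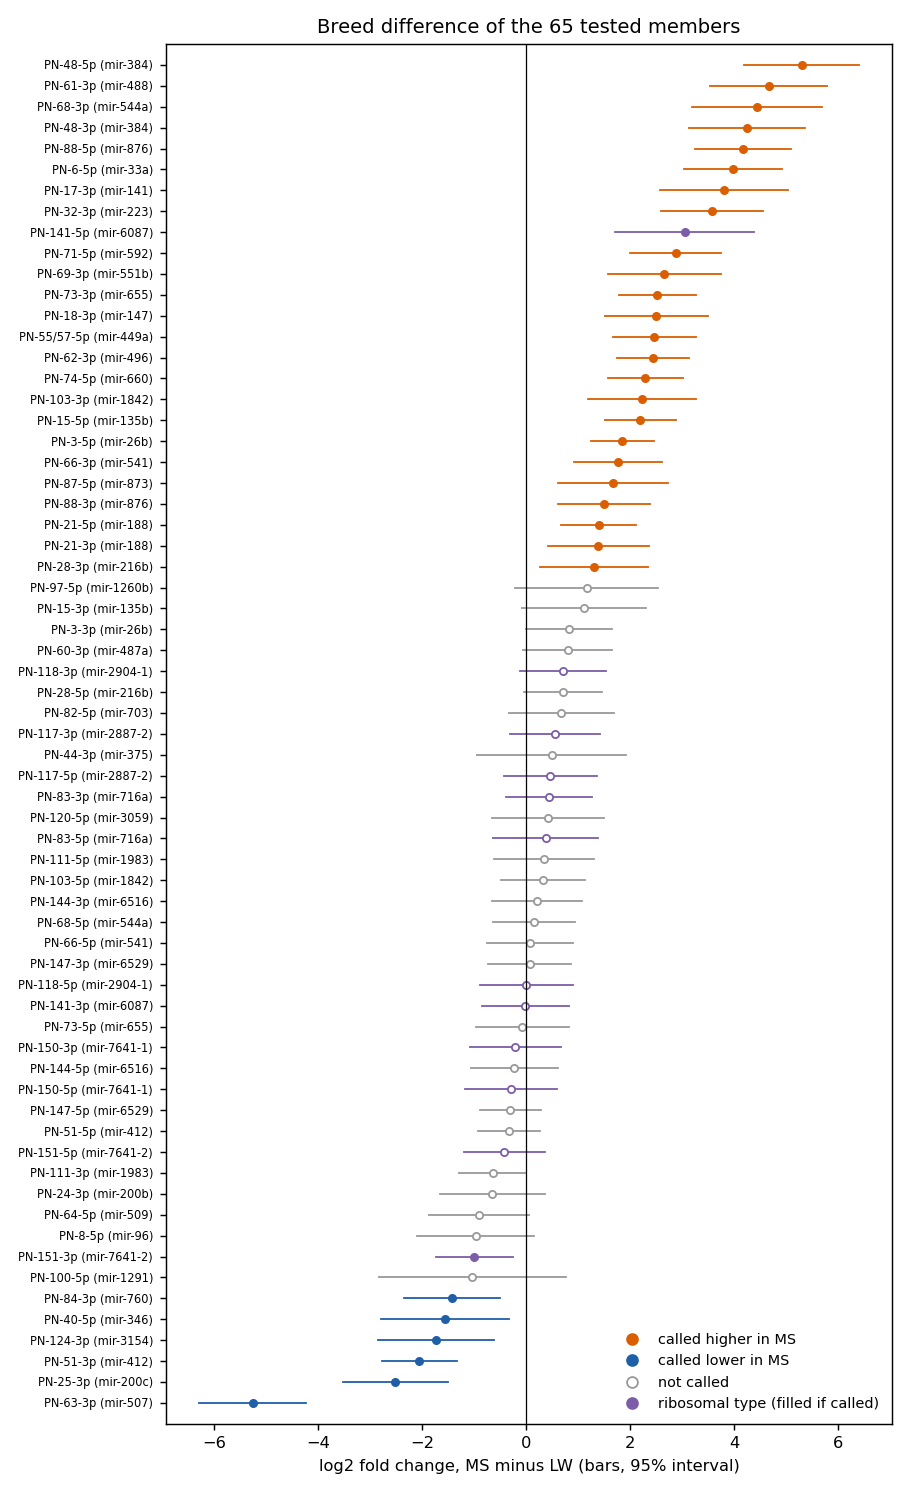
Log2 fold change (MS minus LW, x axis) of the 65 tested members with 95% intervals, sorted, 1 row per member. Filled points passed the test: 25 higher, 7 lower; purple marks the ribosomal type, of which 2 of 12 passed.

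Among the members with a breed mean above 1000, PN-74-5p (mir-660), PN-3-5p (mir-26b) and PN-73-3p rose, and PN-73-3p is described with its cluster. The less abundant mir-188, which forms an X-linked pair with mir-660, rose too. Mir-188 and mir-660 lie in an intron of CLCN5, a chloride transporter gene, in mammals, and here their hairpins (PN-21 and PN-74) lay 8323 bases apart on chromosome X. PN-74-5p (mir-660) had 19333, 12316 and 7556 normalized reads in MS, against 2997, 2446 and 2093 in LW (log2 fold change 2.29 ± 0.33 (SE), adjusted p = 9.54e-05). PN-21-5p (mir-188) had 1009, 981 and 497 normalized reads in MS, against 322, 261 and 321 in LW (log2 fold change 1.39 ± 0.33 (SE), adjusted p = 0.00307). Both arms were apart between the breeds, and of the 4 members of this pair, 3 were tested and all 3 rose, against 34.1% of all miRNAs tested, though 2 of the 3 are arms of PN-21. The third, PN-21-3p, had 58.3, 53.3 and 27.1 normalized reads in MS, against 23.8, 11.4 and 15.5 in LW (log2 fold change 1.38 ± 0.44 (SE), adjusted p = 0.0165). Its call was lost without LW2 (adjusted p = 0.0677), MS1 (0.0685) or MS2 (0.0581). PN-74-3p averaged 1.81 in MS and 3.51 in LW and was not tested.

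PN-3-5p (mir-26b), whose precursor lies in an intron of a CTDSP phosphatase gene, had the highest breed mean of any member. It had 34607, 27179 and 17770 normalized reads in MS, against 7516, 8060 and 5964 in LW (log2 fold change 1.84 ± 0.28 (SE), adjusted p = 1.25e-04). MS was above LW in every library. Known miR-26a-5p, with the same seed, averaged 100547 ± 16468 in MS and 87632 ± 5442 in LW (SD, n = 3 each; log2 fold change 0.19, adjusted p = 0.433). PN-3-5p is at 32% G and C, and its log2 fold change was -0.36 after the GC correction (adjusted p = 0.153). PN-3-3p had 41.7, 37.6 and 50.8 normalized reads in MS, against 27.6, 17.1 and 29.2 in LW, not overlapping but not called (log2 fold change 0.82, adjusted p = 0.0802). PN-3-3p was called higher with the GC correction (1.03, adjusted p = 0.0284), with equal sums (1.24, adjusted p = 0.0165) and without the trend (adjusted p = 0.0497).

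GC content ran with the fold change among the 53 tested members outside the ribosomal type. Under 40% G and C, 12 of 16 were higher and 0 lower in MS, with a median log2 fold change of 2.36. Between 40 and 50%, 7 of 20 were higher and 2 lower (median 0.75), and over 50%, 5 of 17 were higher and 4 lower (median 0.33). The whole table ran the same way. Over all miRNAs tested, 71.7% of 120 were higher and 6.67% lower under 40% G and C (median 1.98), 33.0% of 200 and 28.5% between 40 and 50% (median 0.098), and 15.4% of 228 and 39.0% over 50% (median -0.58). With the GC correction the members called were 38, 26 higher and 12 lower, and 23 of the 32 were called in the same direction.

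On the log2(value + 1) scale the largest rise was that of mir-384, a miRNA with the miR-30 seed encoded on chromosome X (PN-48, chrX:69515826-69515913). PN-48-5p had 755, 634 and 450 normalized reads in MS, against 16.3, 30.9 and 5.48 in LW. The lowest MS library was more than 10 times the highest LW library (log2 fold change 5.30 ± 0.51 (SE), adjusted p = 5.62e-06). PN-48-3p rose as well, with 232, 240 and 118 normalized reads in MS, against 3.76, 17.9 and 10.05 in LW (log2 fold change 4.24 ± 0.51 (SE), adjusted p = 2.90e-05). MiR-30a-5p, the most abundant known miRNA with this seed, had a log2 fold change of 0.03 (adjusted p = 0.911). PN-48-5p is at 30% and PN-48-3p at 27% G and C. With the GC correction their log2 fold changes were 2.90 (adjusted p = 7.23e-04) and 1.41 (adjusted p = 0.0361). That of PN-6-5p (mir-33a) was then larger, at 3.65.

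Of 9 members on a list of miRNAs hosted by genes of the nervous system 6 were tested, 5 rose and 1 fell. Over all miRNAs tested 34.1% were higher and 28.1% lower. The median log2 fold change was 2.27 on this list, against 0.11 over all miRNAs tested. The list was made with earlier results of these data known. It leaves out the 8 members of introns of HTR2C, a serotonin receptor gene, of which 0 were tested. Of the 5 rises, those of PN-88-5p, PN-88-3p and PN-87-5p came from neighbouring hairpins. PN-61-3p (mir-488, in an intron of the astrotactin gene ASTN1) had 199, 137 and 81.2 normalized reads in MS, against 8.77, 4.07 and 1.83 in LW (log2 fold change 4.66 ± 0.52 (SE), adjusted p = 1.55e-05). PN-88-5p (mir-876, in LINGO2) had 112, 114 and 57.5 normalized reads in MS, against 3.76, 4.88 and 3.65 in LW (log2 fold change 4.17 ± 0.42 (SE), adjusted p = 7.88e-06). Neither overlapped. PN-71-5p (mir-592, in the glutamate receptor gene GRM8) had 55.4, 50.5 and 49.1 normalized reads in MS, against 6.26, 8.13 and 4.57 in LW (log2 fold change 2.87 ± 0.40 (SE), adjusted p = 7.81e-05), and PN-87-5p (mir-873, 32124 bases from PN-88) rose by less, at a log2 fold change of 1.67 (adjusted p = 0.00953). With the GC correction PN-61-3p, PN-88-5p, PN-71-5p and PN-87-5p had log2 fold changes of 3.10, 2.84, 1.31 and 1.88, and all were still called. The fifth, PN-88-3p, is the other arm of PN-88, with 29.5, 27.5 and 21.99 normalized reads in MS, against 8.77, 8.95 and 8.22 in LW (log2 fold change 1.49 ± 0.40 (SE), adjusted p = 0.00634). With the GC correction it turned to -0.50 and lost its call (adjusted p = 0.237). The other arm of PN-61 went the other way but was not tested. PN-61-5p had 2.88, 0 and 1.69 normalized reads in MS, against 13.8, 3.25 and 11.9 in LW, without overlap. Behind these were 4, 0 and 1 reads in MS and 11, 4 and 13 in LW. The untested PN-87-3p and PN-40-3p overlapped, averaging 3.40 and 0.306 in MS, against 3.38 and 0.689 in LW. The tested member that fell was PN-40-5p (mir-346, in the glutamate receptor gene GRID1). PN-40-5p had 2.16, 7.35 and 8.46 normalized reads in MS, against 10.02, 19.5 and 27.4 in LW (log2 fold change -1.56 ± 0.57 (SE), adjusted p = 0.0294). It was all lower in MS but close, with 8.46 in MS3 and 10.02 in LW1, and its call was lost without LW2, LW3 or MS1 (adjusted p from 0.0763 to 0.126) and with the GC correction (-0.93, adjusted p = 0.168).

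PN-6-5p (mir-33a), which in mammals lies in an intron of SREBF2 and lowers cholesterol export, rose. It had 502, 525 and 220 normalized reads in MS, against 32.6, 14.6 and 27.4 in LW (log2 fold change 3.98 ± 0.43 (SE), adjusted p = 1.27e-05). PN-32-3p (mir-223), known for its abundance in neutrophils and other myeloid cells, had 94.3, 60.6 and 173 normalized reads in MS, against 10.02, 6.51 and 6.39 in LW (log2 fold change 3.57 ± 0.45 (SE), adjusted p = 3.63e-05). MS3 was the highest of its libraries, and all MS lay above all LW. PN-18-3p (mir-147) had 51.1, 38.6 and 23.7 normalized reads in MS, against 7.52, 4.07 and 5.48 in LW (log2 fold change 2.50 ± 0.46 (SE), adjusted p = 5.02e-04), so that both tested members of the 4 on the myeloid list rose, against 34.1% of all miRNAs tested. PN-32-5p averaged 3.26 in MS and 0.305 in LW, and PN-18-5p 3.47 and 3.86. The part of blood cells in these values was not tested.

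The miR-200 family, which keeps epithelial cells from turning mesenchymal by repressing ZEB1 and ZEB2, did not move as 1 group. PN-17-3p (mir-141) had 13.7, 34.9 and 20.3 normalized reads in MS, against 1.25, 0.813 and 0 in LW (log2 fold change 3.81 ± 0.57 (SE), adjusted p = 1.19e-04). In MS these were 69 reads and in LW 2, a ratio of 35.1 (95% exact interval 9.35 to 296, counting error only). PN-25-3p (mir-200c), whose hairpin lay 327 bases from that of PN-17 on the minus strand of chromosome 5, had 2.88, 7.35 and 6.77 normalized reads in MS, against 28.8, 43.9 and 34.3 in LW (log2 fold change -2.52 ± 0.46 (SE), adjusted p = 5.19e-04). The neighbours were thus called in opposite directions, with no library of either overlapping between breeds.

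PN-24-3p (mir-200b, on chromosome 6) overlapped, with 22.3, 44.99 and 76.1 normalized reads in MS, against 58.9, 54.5 and 95.5 in LW (log2 fold change -0.65 ± 0.46 (SE), adjusted p = 0.232). It was called lower without MS3 (log2 fold change -1.06, adjusted p = 0.0385) and with the GC correction (-2.22, adjusted p = 0.00492). Known miR-429-3p, which lies beside mir-200b in other mammals, averaged 33.1 ± 12.1 in MS and 3.33 ± 2.15 in LW (SD, n = 3 each; log2 fold change 3.07, adjusted p = 4.87e-04). PN-8-5p (mir-96, of sensory hair cells) had 5.76, 8.26 and 3.38 normalized reads in MS, against 7.52, 17.9 and 11.9 in LW (log2 fold change -0.97 ± 0.52 (SE), adjusted p = 0.118). With the GC correction it was called lower (-2.15, adjusted p = 0.00454). Known miR-1271-5p, with its seed, averaged 64.5 in MS and 9383 in LW (log2 fold change -7.14). PN-8-5p was the fourth tested of 6 epithelial members. Of the 4 tested 1 rose and 1 fell (25% each), where over all miRNAs tested 34.1% were higher and 28.1% lower. Their median log2 fold change was -0.81.

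**Figure D4:**
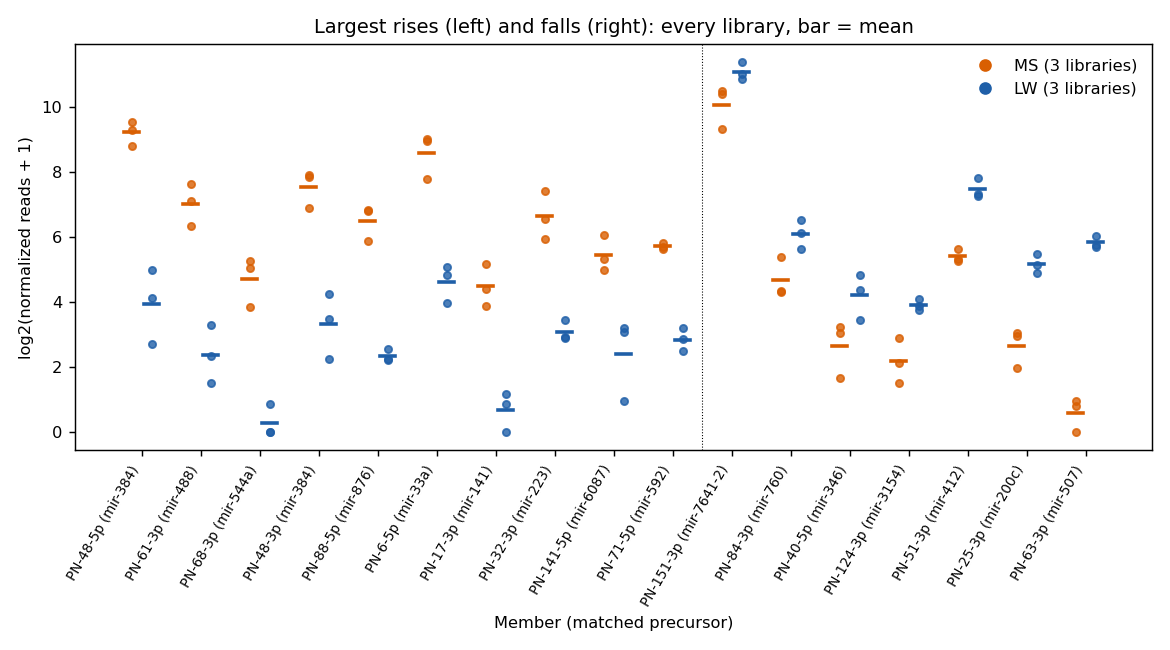
Log2(normalized reads + 1) in every library for the 10 largest rises (left of the dotted line) and the 7 falls (right), MS in orange and LW in blue, points single libraries and bars means. No member shown overlaps between breeds; PN-63-3p is at or near 0 in all 3 MS libraries and between 51.4 and 64.9 normalized reads in LW.

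The deepest fall was that of mir-507, of the X-linked mir-506 cluster, which is known for its expression in the testis. PN-63-3p (chrX:137160736-137160825, minus strand) had 0.72, 0.918 and 0 normalized reads in MS, against 51.4, 53.7 and 64.9 in LW. Behind these values were 2 reads in MS and 178 in LW, a ratio of LW over MS of 87.5 (95% exact interval 23.9 to 728, counting error only; log2 fold change -5.27 ± 0.48, adjusted p = 3.50e-06). PN-64-5p (mir-509) of the same cluster, 64966 bases away, had 7.92, 7.35 and 15.2 normalized reads in MS, against 18.8, 21.1 and 17.4 in LW (log2 fold change -0.91 ± 0.44 (SE), adjusted p = 0.0909). It did not overlap either, with MS the lower, but passed the test only without MS3 (adjusted p = 0.0248), without the trend (0.0421) or with the GC correction (0.0333).

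The other falls were of PN-84-3p (mir-760), PN-124-3p (mir-3154) and PN-51-3p. PN-84-3p had 18.7, 19.3 and 40.6 normalized reads in MS, against 48.9, 91.1 and 69.4 in LW (log2 fold change -1.43 ± 0.42 (SE), adjusted p = 0.0108), and its call was lost without LW2 (adjusted p = 0.0528) or with the GC correction (-0.81, adjusted p = 0.105). PN-124-3p had 6.48, 1.84 and 3.38 normalized reads in MS, against 12.5, 16.3 and 13.7 in LW (log2 fold change -1.74 ± 0.51 (SE), adjusted p = 0.0107), a call lost with the GC correction (adjusted p = 0.0675). PN-51-3p is described with its cluster.

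The imprinted DLK1-DIO3 cluster, whose many miRNAs come from the maternal chromosome and are abundant in fetal tissues, gave 18 members. They summed to 8851, 7291 and 5522 normalized reads in MS, against 4030, 6211 and 4902 in LW. MS3 and LW2 overlapped (difference of log2 means 0.51, two-sided exact permutation test, p = 0.20). As shares of all normalized reads they took 0.375, 0.366 and 0.314% in MS, against 0.159, 0.223 and 0.168% in LW, which did not overlap (two-sided exact permutation test, p = 0.10, the smallest possible). Of 10 tested, 4 rose, 1 fell and 5 were not called, with a median log2 fold change of 0.47. Their 50% of calls and 40% of rises stood beside 62.2% and 34.1% over all miRNAs tested.

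Within this cluster the arms of single hairpins went apart. PN-51-5p (mir-412) had 3174, 2482 and 2545 normalized reads in MS, against 2556, 4370 and 3551 in LW (log2 fold change -0.33 ± 0.27 (SE), adjusted p = 0.309). PN-51-3p had 39.6, 37.6 and 49.1 normalized reads in MS, against 153, 162 and 227 in LW (log2 fold change -2.06 ± 0.33 (SE), adjusted p = 1.96e-04). The 5p arm overlapped between breeds, the 3p arm did not. With the GC correction the 5p arm was called lower too (-0.88, adjusted p = 0.0104). PN-73-3p (mir-655) had 3554, 3240 and 1592 normalized reads in MS, against 536, 463 and 388 in LW (log2 fold change 2.52 ± 0.34 (SE), adjusted p = 5.42e-05), whereas PN-73-5p had 16.6, 12.9 and 20.3 normalized reads in MS, against 18.8, 18.7 and 14.6 in LW (log2 fold change -0.08). PN-73-3p is at 27% G and C, and with the GC correction its log2 fold change was -0.31 (adjusted p = 0.300), while PN-73-5p was then called lower (-0.996, adjusted p = 0.04). The breed difference between the arms of PN-73 was thus mostly lost with that correction.

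PN-68-3p (mir-544a) was nearly absent from LW, with 37.4, 32.1 and 13.5 normalized reads in MS, against 0, 0.813 and 0 in LW. These were 95 reads in MS and 1 in LW, a ratio of 96.6 (95% exact interval 16.9 to 3856, counting error only; log2 fold change 4.44 ± 0.57, adjusted p = 4.27e-05). PN-68-5p, from the same hairpin, had 113, 149 and 86.3 normalized reads in MS, against 145, 75.6 and 97.7 in LW and overlapped (log2 fold change 0.14). With the GC correction PN-68-5p was called lower (-1.85, adjusted p = 0.00124) and PN-68-3p had 1.61. PN-66-3p (mir-541) rose, with 934, 610 and 311 normalized reads in MS, against 189, 164 and 146 in LW (log2 fold change 1.76 ± 0.39 (SE), adjusted p = 0.00186), while PN-66-5p overlapped, with 616, 430 and 469 normalized reads in MS, against 323, 858 and 385 in LW. PN-62-3p (mir-496), named after its values were seen, completed the 4 rises (log2 fold change 2.44).

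The ratio of the 3p to the 5p arm in each library does not depend on the scaling between libraries, apart from the 1 added to each arm. It was taken for the 20 hairpins with both arms tested. Outside the ribosomal type it did not overlap between the breeds in 8 of 14 (two-sided exact permutation test, p = 0.10 in each, the smallest possible). Over all 153 pairs of arms tested in the table, 69.3% did not overlap, and nothing particular to the members is read from their count. In PN-68 the log2 ratio was -1.57, -2.18 and -2.59 in MS, against -7.19, -5.40 and -6.63 in LW. PN-68-3p had 0, 1 and 0 reads in LW. The ratios of LW1 and LW3 are thus set by the added 1 and the level of the 5p arm. In PN-88 (mir-876) the log2 ratio was -1.88, -2.01 and -1.35 in MS, against 1.04, 0.76 and 0.99 in LW, so that the 5p arm was the higher in MS and the 3p arm in LW. In LW this rests on few reads: 3, 6 and 4 of the 5p arm, against 7, 11 and 9 of the 3p arm. PN-21 lay at the other end, with means of -4.14 ± 0.04 in MS and -4.13 ± 0.37 in LW (SD, n = 3 each).

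**Figure D5:**
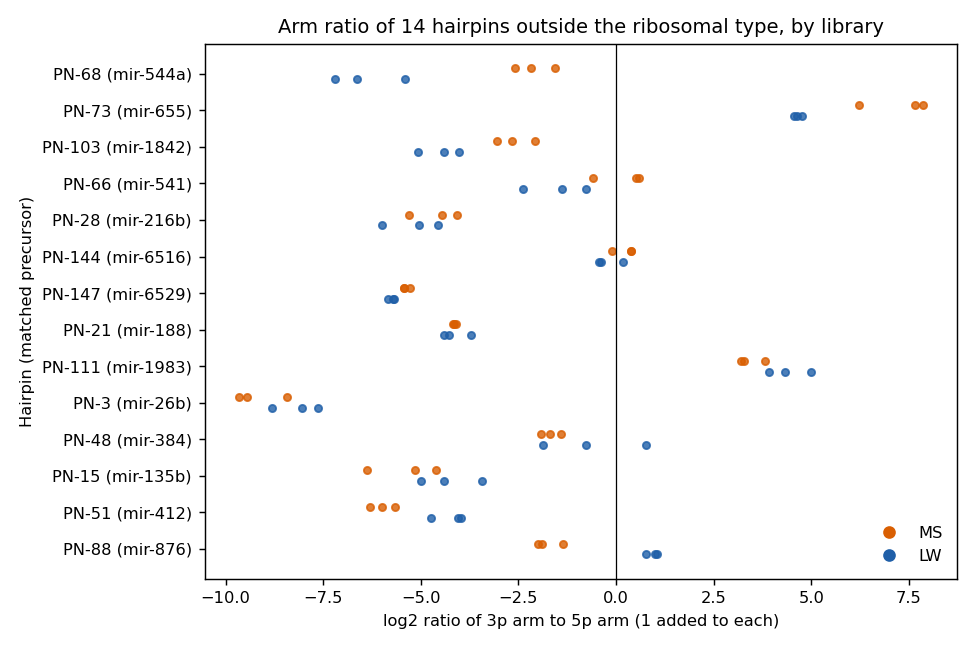
Log2 ratio of the 3p to the 5p arm (1 normalized read added to each) for 14 hairpins outside the ribosomal type, each point 1 library, MS in orange above LW in blue. The breeds are apart in 8 hairpins, among them PN-68, PN-73 and PN-88, and overlap in PN-21.

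In the remaining lists few members reached the test. PN-55-5p and PN-57-5p (mir-449a, of multiciliated cells) are 1 sequence from 2 hairpins, with 73.4, 56.5 and 64.3 normalized reads in MS, against 11.3, 11.8 and 9.59 in LW (log2 fold change 2.46 ± 0.37 (SE), adjusted p = 1.20e-04). Of the same type PN-56-5p averaged 8.80 in MS and 2.11 in LW, PN-7-5p (mir-34b) 7.47 in MS and 5.51 in LW, and PN-7-3p 1.52 in MS and 0.993 in LW, all untested. Known miR-34c-5p, which has the seed of PN-55-5p, PN-56-5p and PN-7-5p, was not called (log2 fold change 0.32, adjusted p = 0.470).

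Of the 5 endocrine or organ-restricted members, PN-28-3p (mir-216b) rose, with 19.4, 12.9 and 13.5 normalized reads in MS, against 8.77, 4.07 and 4.57 in LW (log2 fold change 1.30 ± 0.48 (SE), adjusted p = 0.0308). It was called in 2 of the 6 fits without 1 library and had a log2 fold change of -0.26 with the GC correction (adjusted p = 0.617). Its call was also lost with DESeq2 (adjusted p = 0.0729) and without the filter (0.0661). PN-28-5p had 341, 303 and 575 normalized reads in MS, against 229, 321 and 185 in LW and overlapped. It was not called by the main test but was called higher with equal sums (log2 fold change 1.14, adjusted p = 0.0261). PN-44-3p (mir-375, of pancreatic islets) was highest in the third library of either breed, with 7.2, 7.35 and 28.8 normalized reads in MS, against 6.26, 4.07 and 19.2 in LW (log2 fold change 0.48, adjusted p = 0.530). PN-27-5p (mir-211, of melanocytes) averaged 1.48 in MS and 6.71 in LW and was not tested. Known miR-204-5p, with its seed, was not called (log2 fold change -0.18).

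PN-4-3p (mir-26a-1), a further copy of an abundant known miRNA, averaged 0.852 in MS and 1.03 in LW. Known miR-26a-3p, with its seed, averaged 71.3 in MS and 4.57 in LW (log2 fold change 3.99).

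None of the 4 tested members of the tRNA or snoRNA type was called, where 62.2% of all miRNAs tested were. PN-111-5p (mir-1983) averaged 14.1 in MS and 11.3 in LW. PN-111-3p had 155, 182 and 149 normalized reads in MS, against 223, 263 and 277 in LW, all lower in MS (log2 fold change -0.65 ± 0.29 (SE), adjusted p = 0.0724). It passed with DESeq2 (adjusted p = 0.0127), with median-of-ratios scaling (0.0478) and with the GC correction (0.0401). PN-97-5p (mir-1260b) had 8.63, 32.1 and 18.6 normalized reads in MS, against 18.8, 4.07 and 4.57 in LW, and passed without LW1 (adjusted p = 0.0249), without MS1 (0.0445) or with the GC correction (0.0442). PN-100-5p (mir-1291) had 2.16, 6.43 and 1.69 normalized reads in MS, against 16.3, 15.5 and 0.913 in LW, and was called lower only without LW3 (log2 fold change -2.08, adjusted p = 0.0160).

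The muscle members of the conserved type were rare beside the known ones. PN-1-3p had 5.76, 5.51 and 1.69 normalized reads in MS, against 0, 0.813 and 0 in LW, where known miR-1-3p, 1 base different, averaged 6244 in MS and 398 in LW. PN-1-5p averaged 6.41 in MS and 0.609 in LW, and known miR-1-5p, with its seed, 14.6 in MS and 4.01 in LW. PN-26-3p (mir-208a, in an intron of the cardiac myosin gene MYH6) averaged 0.720 in MS and 0.305 in LW. Known miR-208b-3p, which has its seed, averaged 2509 in MS and 67.4 in LW. PN-13-5p with PN-14-5p (mir-133c) averaged 0.282 in MS and was at 0 in every LW library.

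The pluripotency members (mir-302, mir-367 and mir-371, 7 in all) and the 8 members of the HTR2C introns, a serotonin receptor gene on chromosome X, held none with a breed mean above 10. PN-36-5p (mir-302a) had 0 in every MS library and 2.51, 0.813 and 1.83 in LW1, LW2 and LW3, which are a few reads. PN-41-3p (mir-367) and PN-42-5p (mir-371) each averaged 0.870 in MS, and the sequence shared by the 3p arms of PN-34, PN-35 and PN-36 averaged 0.742 in MS, all at 0 in LW. Known miR-92a-3p, with the seed of PN-41-3p, was not called (log2 fold change -0.31). PN-101-5p (mir-1298) averaged 3.82 in MS and 7.78 in LW. PN-106-5p (mir-1911) was at 0 in 5 libraries and 7.32 in LW2, and PN-107-3p (mir-1912) was at 0 in MS and averaged 1.23 in LW, as PN-54-3p (mir-448) was at 0 in MS and averaged 0.418 in LW.

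Outside every list stood 103 members, of which 15 were tested, 5 higher, 2 lower and 8 not called. Their 33.3% of rises and 13.3% of falls stood beside 34.1% and 28.1% over all miRNAs tested. PN-147-5p (mir-6529) was abundant and overlapped, with 2570, 2205 and 1722 normalized reads in MS, against 2171, 2641 and 3218 in LW (log2 fold change -0.31 ± 0.27 (SE), adjusted p = 0.334). PN-15-5p (mir-135b), named after its values were seen, had 407, 392 and 506 normalized reads in MS, against 112, 106 and 69.4 in LW (log2 fold change 2.20 ± 0.32 (SE), adjusted p = 9.54e-05). Known miR-135-5p, 1 base different, had a log2 fold change of 2.02 (adjusted p = 1.49e-04). After the GC correction that of PN-15-5p was 0.41 and its call was lost (adjusted p = 0.244).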

How the data were processed

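Small RNA libraries of 3 MS and 3 LW longissimus dorsi samples were used. Each deposited value is a signal made by the authors, the normalized read number of a miRNA's commonest sequence. The authors filtered reads for length and known structural RNAs with ACGT101-miR, and mapped the rest to miRBase precursors and Sscrofa10.2. They normalized each library by its total mappable reads, and the common total is not given in the sources. The listed values summed to 2.36e+06, 1.99e+06 and 1.76e+06 in MS1, MS2 and MS3. In LW1, LW2 and LW3 they summed to 2.54e+06, 2.78e+06 and 2.91e+06. Sums and shares of the same members can therefore differ between the breeds. Low values of a library were multiples of what 1 read is worth: 93.3 to 95.7% of values up to 20 reads were whole within 0.1 read, and dividing by the step gave the reads recovered. Hairpin sequences, positions and precursor names came from the study's supplement.

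The breeds' log2(value + 1) was fitted by limma 3.58.1 (R 4.3.3, eBayes trend). P-values were Benjamini-Hochberg adjusted across the 548 miRNAs whose mean reached 10 in MS or in LW. It called 341 of them. On recovered reads edgeR 4.0.16 called 345 and DESeq2 1.42.0 called 347. Fold changes are on the log2(value + 1) scale and understate low miRNAs. Sums and shares were compared by two-sided exact permutation. The GC correction took off a loess curve (span 0.75) from each library. Scripts were tested on simulated data. Python 3.11.15 and RNAfold 2.7.2 were used.

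The members and lists were chosen with earlier results of these data known. Named one by one are members whose mean reached 1000 in a breed, the 10 largest rises and 10 largest falls (7 exist) among called members that did not overlap, up to 4 members of each list by mean, and the most abundant known miRNA with a named member's seed. Others were named after their values were seen. Alternatives were other pseudocounts, scalings, filters and tools, a GC correction, a replicate block, and leaving out each library. Lines without values (4) were not used.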

Additional observations from a re-analysis of the deposited data

How the results depend on the processing

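Calls on few reads, values within 1 read of 0 and p-values from 3 animals a breed limit these results, and the smallest exact permutation p was 0.10. Of 32 members called, TMM and pseudocounts of 0.5 and 10 kept all 32, edgeR 32 and DESeq2 31. Scaling to equal sums called 37 (4 lower), of which 29 were shared, also when the ribosomal-type arms were left out of the sums. Without a filter 44 were called, 12 of them lower. Among members above 1000 only 4 were called, 3 higher and 1 lower, fewer being tested. The GC correction gave 12 lower. Leaving out a library gave 29 to 37 calls, 23 to 28 higher and 5 to 9 lower. The other members' sum differed by 1.20 to 1.68 then, the ribosomal-type sum by -0.26 to 0.46, and the share of normalized reads in the members by 1.93 to 3.28 percentage points. Without the ribosomal-type arms, an alternative chosen after seeing the data, 30 members were called. The 28S-type and 5S-type sums were likewise separated after seeing the data.

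Of 52 named members tested, 5 of them named after their values were seen, 22 kept direction and call in every alternative run. The following changed sign, and the cause was not tested. Members not called by the main test had, with equal sums, 0.44 for PN-118-5p, 0.42 for PN-141-3p, 0.13 for PN-147-5p, 0.15 for PN-150-5p, 0.017 for PN-151-5p, 0.11 for PN-51-5p and 0.34 for PN-73-5p, and 0.45 for PN-118-5p, 0.43 for PN-141-3p, 0.14 for PN-147-5p, 0.16 for PN-150-5p, 0.030 for PN-151-5p, 0.12 for PN-51-5p and 0.35 for PN-73-5p when the ribosomal-type arms were left out. TMM gave 0.045 for PN-118-5p and 0.026 for PN-141-3p, edgeR 0.12 for PN-118-5p, 0.12 for PN-141-3p and -0.13 for PN-66-5p, and DESeq2 0.052 for PN-118-5p, 0.055 for PN-141-3p and -0.14 for PN-66-5p. The GC correction gave 0.63 for PN-118-5p, 0.58 for PN-141-3p, 0.26 for PN-147-5p, 0.20 for PN-150-5p, 0.21 for PN-151-5p, -0.21 for PN-28-5p and -1.85 for PN-68-5p. For the called members it gave -0.26 for PN-28-3p, -0.36 for PN-3-5p, -0.31 for PN-73-3p and -0.50 for PN-88-3p. The GC correction with the replicate block gave the same log2 fold changes, 0.63 for PN-118-5p, 0.58 for PN-141-3p, 0.26 for PN-147-5p, 0.20 for PN-150-5p, 0.21 for PN-151-5p, -0.21 for PN-28-5p, -1.85 for PN-68-5p, -0.26 for PN-28-3p, -0.36 for PN-3-5p, -0.31 for PN-73-3p and -0.50 for PN-88-3p. Leaving out a library gave -0.021 to 0.77 for PN-117-5p, -0.51 to 0.32 for PN-118-5p, -0.49 to 0.26 for PN-141-3p, -0.76 to 0.0064 for PN-150-5p, -0.21 to 0.50 for PN-66-5p, -0.074 to 0.39 for PN-68-5p, -0.23 to 0.082 for PN-73-5p and -0.068 to 0.75 for PN-83-3p.

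The replicate numbers did not pair the samples: the deviations of same-numbered libraries correlated at 0.0047, -0.21 and 0.097 across miRNAs, and not every library correlated best with its own number. With the replicate block all 32 members were called in the same directions, 25 higher and 7 lower, and over all miRNAs 332 were called.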
